A study of Mus musculus with 30 samples.

Results

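Cxcl9, Cxcl10 and Cxcl11 encode the chemokines that bind the receptor CXCR3, and Art3 encodes an ecto-ADP-ribosyltransferase family member whose transcription unit runs across Cxcl10 and Cxcl11 on the opposite strand. The 4 genes were chosen by their response to interferon-gamma (IFNG) in each clone and, for Art3, by its low level in both knockout (KO) clones, out of 54146 genes in the deposited count table. Their IFNG responses, and the KO against wild-type (WT) difference of Art3, are therefore given as descriptions with no test. The rule of choice did not name the differences of the 3 chemokines between KO and WT cells, or differences between clones of the same genotype. These were tested. The tests are not independent of the choice, because the treated levels enter both and earlier results of these data were known.

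The cells were J774A.1, a macrophage-like line from a BALB/c mouse. The 3 WT clones (WT1, WT2, WT3) were unedited lines grown from single cells, and the 2 KO clones (KO1, KO2) carried a homozygous CRISPR deletion of B2_Mm2.Dicer1, a transposon copy inside an intron of Dicer1 on another chromosome. Each clone was either left untreated (UT) or given 100 ng/mL IFNG for 4 h, and 3 RNA-seq libraries were made for each clone and treatment (30 libraries). Each line is 1 clone, so the 3 libraries of a clone are not separate edits, and the labels do not say whether they came from separate cultures. The p-values take each library as a unit and measure the spread between libraries, which may be partly technical. Where clones are pooled, that spread also holds differences between clones, for which the main test had no term. The samples are bulk cultures, so a higher level may come from more responding cells or from more RNA per cell, which cannot be told apart.

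IFNG binds its receptor and signals through the kinases JAK1 and JAK2. Its target genes are reached through gamma-activated sites (GAS) and, by way of the IRF proteins, through interferon-stimulated response elements (ISRE). CXCL9, CXCL10 and CXCL11 are classical outputs of this pathway in macrophages, and through CXCR3 they attract activated T cells and natural killer cells. The C57BL/6 reference genome carries a disrupted Cxcl11 gene, which is annotated as a polymorphic pseudogene, whereas BALB/c mice have an intact copy. ART3 is a membrane-anchored relative of the arginine-specific ADP-ribosyltransferases, for which no enzymatic activity is established.

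All 4 genes lie in a short stretch of chromosome 5 (mm10). Cxcl9 (ENSMUSG00000029417.9) occupies chr5:92321347-92328079 on the minus strand, with 3016 exonic bases. Art3 (ENSMUSG00000034842.16) starts 3748 bases from the Cxcl9 start, on the plus strand, and spans chr5:92331827-92414628 with 3932 exonic bases. Cxcl10 (ENSMUSG00000034855.13, chr5:92346638-92348889, minus strand) has 2252 exonic bases and lies inside the Art3 span, where 133 of them are also annotated as Art3 exon. Cxcl11 (ENSMUSG00000060183.6, chr5:92359544-92365485, minus strand) has 3794 exonic bases, lies wholly between Art3 exons and shares no exonic base with Art3. The map of the region shows that Cxcl9 and Art3 point away from each other, while Cxcl10 and Cxcl11 are antisense to Art3.

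**Figure D1:**
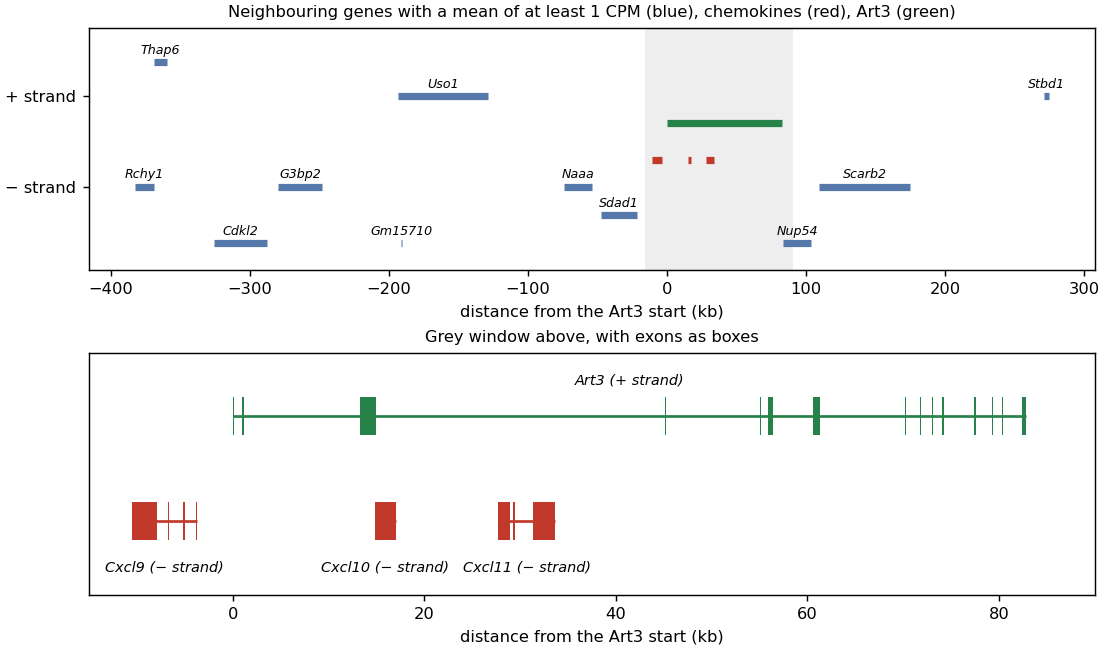
Map of the region as distance from the Art3 start in kb, with neighbouring genes that reached a mean of 1 CPM in a group (upper panel) and the exons of the 4 genes (lower panel). Art3 spans Cxcl10 and Cxcl11 on the opposite strand, and its exons meet those of Cxcl10 over 133 bases.

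The bases before the start sites are shown because the chemokines share an inducer and Art3 and Cxcl9 start close together. The RefSeq table (GRCm38.p6) held 5 start sites for 3 of the genes, and the 250 bases before each start were searched on both strands for GAS (TTCNNNGAA), ISRE (GAAANNGAAA) and the 10-letter NF-kB consensus. Capitals mark matches. The Cxcl10 sequence, chr5:92348890-92349139 on the minus strand, follows with the Cxcl9 sequence, chr5:92328080-92328329 on the minus strand, and the first Art3 start, chr5:92331577-92331826 on the plus strand.

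Cxcl10: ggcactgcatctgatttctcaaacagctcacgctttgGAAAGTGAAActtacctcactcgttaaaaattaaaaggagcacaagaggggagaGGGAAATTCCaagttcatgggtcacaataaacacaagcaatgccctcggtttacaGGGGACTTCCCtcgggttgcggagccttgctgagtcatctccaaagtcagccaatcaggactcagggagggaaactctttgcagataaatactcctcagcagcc

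Cxcl9: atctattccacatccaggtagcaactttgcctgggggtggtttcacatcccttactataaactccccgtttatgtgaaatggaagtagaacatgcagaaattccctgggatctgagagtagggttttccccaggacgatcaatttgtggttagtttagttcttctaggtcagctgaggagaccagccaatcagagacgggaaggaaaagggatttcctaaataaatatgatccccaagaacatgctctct

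Art3: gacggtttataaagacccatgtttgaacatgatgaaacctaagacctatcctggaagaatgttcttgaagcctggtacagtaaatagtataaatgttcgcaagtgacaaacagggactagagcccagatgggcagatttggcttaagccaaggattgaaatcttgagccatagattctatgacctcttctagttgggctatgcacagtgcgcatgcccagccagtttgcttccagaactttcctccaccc

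Cxcl10 held an ISRE match from base -213 to -204 (GAAAGTGAAA), an NF-kB match from -159 to -150 (GGGAAATTCC), and overlapping NF-kB matches from -104 to -94 that share all but 1 base at each end. Of all 32851 promoter windows of the same length in the table, 2.98% held an ISRE, 7.25% an NF-kB and 7.02% a GAS match. None of these letters were found in the Cxcl9 window or in the 3 Art3 windows. The other Art3 starts lie beyond Cxcl11, so that Art3 RNA begun there would not cross the chemokine genes.

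Counted fragments ranged from 15566122 to 37992642 per library, and no 2 libraries of a group agreed within sampling noise (chi-square per degree of freedom of 1.95 to 19.5 over 30 pairs). Dicer1 had 118.7 ± 11.3 CPM (the count scaled to a common library size, ± SD) in untreated WT libraries (n = 9) and 88.0 ± 18.2 in untreated KO libraries (n = 6), and 151.9 ± 13.2 and 87.3 ± 14.1 after IFNG. Untreated KO2 (104.5 ± 3.65 CPM) overlapped untreated WT1 (105.0 ± 7.21), and KO1 was lower (71.5 ± 1.30). All 8 macrophage markers examined reached at least 1 CPM in every library. The 3 T cell, 3 B cell and 3 epithelial markers stayed below 0.159 CPM throughout. Of the fibroblast markers, Pdgfra ranged from 0.290 to 2.85 CPM, while Col1a1 reached at most 0.222 CPM and Col1a2 at most 0.0555 CPM. Of the endothelial markers, Cdh5 ranged from 1.07 to 2.18 CPM, Pecam1 had a median of 0.768 CPM and Kdr reached at most 0.280 CPM. WT1 stood apart from the other WT clones, with 48.2% of tested genes past the threshold after IFNG (6588 of 13667) and 52.6% untreated (7344 of 13971), and whether this reflects the clone or its handling cannot be told apart.

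Cxcl10 was the most abundant of the chemokines after IFNG in every library, and all 3 were near or at 0 before it. In untreated cells, Cxcl10 was counted 5 to 27 times per library, or 0.220 to 1.14 CPM. After IFNG it reached 735, 718 and 663 CPM in WT1, 912, 979 and 853 CPM in WT2, and 789, 897 and 742 CPM in WT3. In KO1 it reached 977, 991 and 1136 CPM, and in KO2 569, 538 and 732 CPM. Every IFNG-treated library lay far above every untreated library. Per exon length, Cxcl10 stood between place 81 and place 225 of the 29004 genes with a count, from between places 12777 and 16018 when untreated.

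The log2 fold change (log2FC) of Cxcl10 between IFNG-treated and untreated libraries was 10.46 ± 0.12 (standard error) in WT1, 9.81 ± 0.08 in WT2, 10.77 ± 0.12 in WT3, 11.26 ± 0.12 in KO1 and 11.02 ± 0.18 in KO2. The untreated level behind these values was highest in WT2 (0.937, 1.14 and 0.943 CPM) and rests on few counts in every clone. Without the untreated WT3 library at 0.604 CPM (17 counts), the WT3 value was 11.11.

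Cxcl9, the chemokine regarded as the most dependent on IFNG rather than other interferons, had no count in any of the 15 untreated libraries. After IFNG it had 34.9, 32.9 and 34.8 CPM in WT1, 39.2, 49.0 and 34.5 CPM in WT2, and 35.2, 46.2 and 35.9 CPM in WT3. KO1 had 60.9, 55.8 and 58.1 CPM, and KO2 had 44.1, 40.5 and 62.2 CPM. Since the untreated libraries were at 0, the fold is a lower bound set against 3 counts over the untreated libraries of the clone. Cxcl9 was at least 978-fold higher in WT1, 803-fold in WT2, 898-fold in WT3, 1473-fold in KO1 and 1343-fold in KO2. These bounds cover counting error only and follow depth, so they do not rank the clones.

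Cxcl11, the CXCR3 ligand of highest affinity, had 1 count in 1 untreated WT3 library and in 1 untreated KO1 library, and 0 in the other untreated libraries. After IFNG it had 18.05, 18.02 and 23.3 CPM in WT1 but 7.32, 6.82 and 7.47 CPM in WT2 and 5.63, 5.71 and 5.52 CPM in WT3. KO1 had 19.9, 21.8 and 28.03 CPM, and KO2 had 13.4, 10.9 and 22.2 CPM. WT1 thus lay within the range of the KO clones, and WT2 and WT3 lay below all other treated libraries. Against the same limit of 3 counts, Cxcl11 was at least 571-fold higher after IFNG in WT1, 141-fold in WT2 and 416-fold in KO2. With 1 untreated count each, the ratio of summed counts per depth was 391 in WT3 (exact 95% counting interval 69.6 to 15474) and 1739 in KO1 (312 to 68724).

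**Figure D2:**
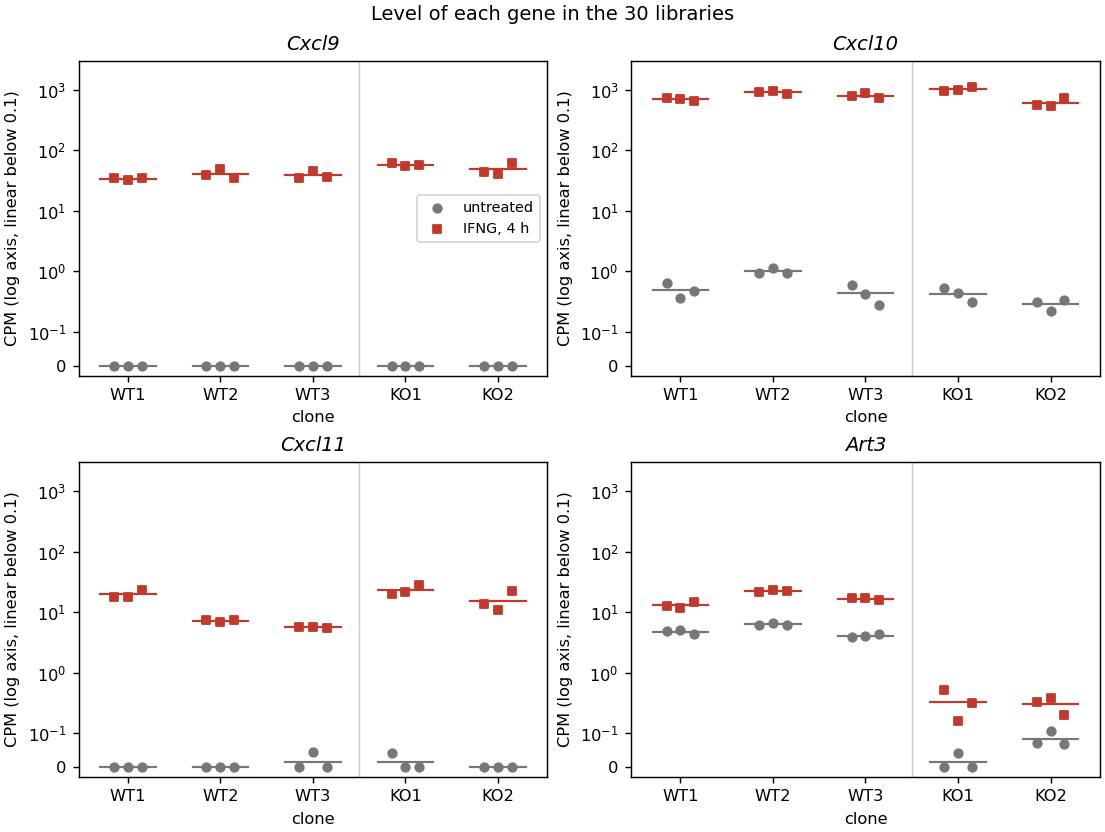
CPM of Cxcl9, Cxcl10, Cxcl11 and Art3 in each library by clone, on a log axis that is linear below 0.1. Grey circles are untreated and red squares IFNG-treated libraries, and bars are means of 3 libraries. The chemokines were high after IFNG in all 5 clones, Cxcl11 was lowest in WT2 and WT3, and Art3 was below 0.6 CPM in every KO library.

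Among all genes, 28.6% of those tested passed the threshold for an IFNG response in pooled WT (3840 of 13423) and 30.7% in pooled KO (4246 of 13851). As the members were chosen by this response, nothing is read from their place in it.

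KO cells had more Cxcl9 than WT cells after IFNG, while Cxcl10 did not pass the test and Cxcl11 did not either. Between IFNG-treated KO and WT libraries, 23.9% of tested genes were called at an adjusted p-value under 0.05 (edgeR's quasi-likelihood test, 3258 of 13637), and 1 of the 3 chemokines was among them. Cxcl9 averaged 53.6 ± 9.12 CPM in KO (SD, n = 6) and 38.1 ± 5.69 CPM in WT (n = 9), a log2FC of 0.49 ± 0.11 (edgeR adjusted p-value = 0.00375). The groups overlapped, because the lower KO2 libraries lay below the highest WT2 library. Cxcl9 did not pass without KO1 (log2FC 0.35, edgeR adjusted p-value = 0.138), nor with counts summed per clone so that each clone is 1 unit (0.48, edgeR adjusted p-value = 0.324).

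Cxcl10 averaged 824 ± 246 CPM in KO and 810 ± 105 CPM in WT after IFNG, a log2FC of 0.03 ± 0.15 (edgeR adjusted p-value = 0.917). The KO mean joined 2 clones on either side of WT. Set against WT alone, KO1 was higher (log2FC 0.36 ± 0.11, edgeR adjusted p-value = 0.0346) and KO2 had a log2FC of -0.41 ± 0.13 (edgeR adjusted p-value = 0.0582).

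Cxcl11 averaged 19.4 ± 6.26 CPM in KO and 10.9 ± 6.90 CPM in WT after IFNG, a log2FC of 0.82 ± 0.34 (edgeR adjusted p-value = 0.0899). This value turned on WT1. Without WT1 the log2FC was 1.59 ± 0.20 (edgeR adjusted p-value = 1.59e-05), without 1 WT1 library it was 1.04 (edgeR adjusted p-value = 0.0194), and without WT3 it was 0.50 (edgeR adjusted p-value = 0.316).

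In untreated cells, 26.6% of tested genes were called between KO and WT (3689 of 13886). Cxcl10 was the only member chemokine with enough counts to test, at 0.358 ± 0.112 CPM in KO and 0.646 ± 0.297 CPM in WT (log2FC -0.84 ± 0.30, edgeR adjusted p-value = 0.0513). The untreated WT2 libraries were the 3 highest, and without that clone the log2FC was -0.41 (edgeR adjusted p-value = 0.262). Without WT1 it was -1.01 (edgeR adjusted p-value = 0.0170) and without WT3 -1.03 (edgeR adjusted p-value = 0.0293). In all it passed in 9 of 26 alternative settings, 5 of which left out a single library (the KO1 library at 0.539 CPM, WT1 at 0.368 or 0.475 CPM, or WT3 at 0.428 or 0.278 CPM, edgeR adjusted p-value = 0.0280 to 0.0462).

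**Figure D3:**
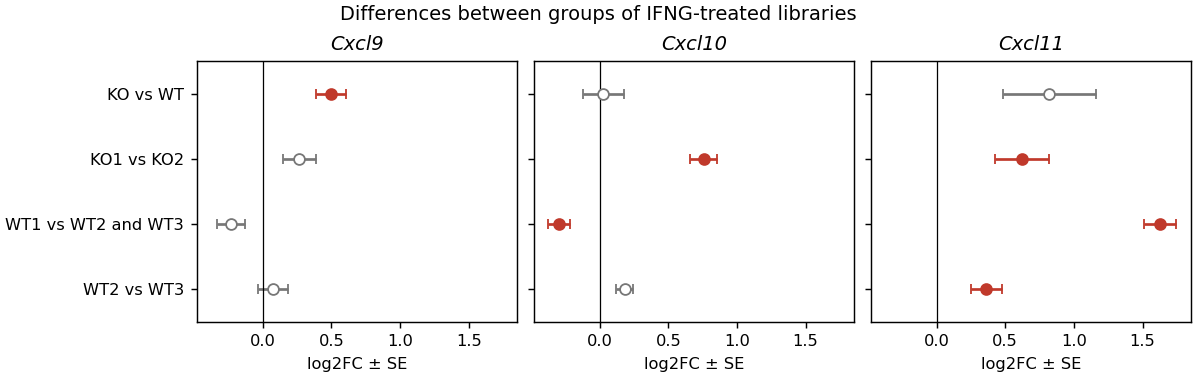
log2FC ± standard error of each chemokine in 4 comparisons of IFNG-treated libraries, with filled red points for an adjusted p-value under 0.05 and open grey points otherwise. The difference of Cxcl11 between WT1 and the other WT clones (1.63) is larger than its KO against WT value (0.82).

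Clones of 1 genotype differed in Cxcl10 and Cxcl11, among unedited clones most clearly in Cxcl11. Whether these differences exceed those between genotypes was not tested. WT1 had 19.8 ± 3.04 CPM after IFNG (n = 3) against 6.41 ± 0.897 CPM in WT2 and WT3 together (n = 6), with no overlap and a log2FC of 1.63 ± 0.12 (edgeR adjusted p-value = 1.01e-07). In the same comparison Cxcl10 was lower in WT1, at 705 ± 37.7 against 862 ± 86.1 CPM (log2FC -0.30 ± 0.08, edgeR adjusted p-value = 0.0059). Cxcl9 did not pass, at 34.2 ± 1.08 against 40.0 ± 6.15 CPM (log2FC -0.23 ± 0.10, edgeR adjusted p-value = 0.0800), although it did on leaving out either the WT2 library at 34.5 CPM (-0.27, edgeR adjusted p-value = 0.0440) or the WT3 library at 35.9 CPM (-0.27, edgeR adjusted p-value = 0.0485), and with no filter on low counts (-0.24, edgeR adjusted p-value = 0.0259). So Cxcl11 and Cxcl10 differed from the other WT clones in opposite directions, against the background of 48.2% of genes called there.

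WT2 and WT3 were closer to each other, with 11.7% of tested genes called after IFNG (1537 of 13147) and 17.2% untreated (2290 of 13310). Cxcl9 had a log2FC of 0.08 ± 0.11 (edgeR adjusted p-value = 0.712) and Cxcl10 of 0.18 ± 0.06 (edgeR adjusted p-value = 0.0635) after IFNG. Cxcl10 passed without the WT2 library at 853 CPM (0.23, edgeR adjusted p-value = 0.0336) or the WT3 library at 897 CPM (0.26, edgeR adjusted p-value = 0.0147), and with no filter on low counts (0.18, edgeR adjusted p-value = 0.000786). Cxcl11 was 7.20 ± 0.341 CPM in WT2 and 5.62 ± 0.0925 CPM in WT3, a log2FC of 0.36 ± 0.12 that passed narrowly (edgeR adjusted p-value = 0.0493) and did not pass under any of 11 alternative settings. Untreated Cxcl10 was higher in WT2 than in WT3 (1.01 ± 0.114 against 0.437 ± 0.163 CPM, log2FC 1.14 ± 0.32, edgeR adjusted p-value = 0.0187), and this did not pass in DESeq2 (adjusted p-value = 0.129), nor without the WT2 library at 1.14 CPM (1.03, edgeR adjusted p-value = 0.103) or the WT3 library at 0.428 CPM (1.1, edgeR adjusted p-value = 0.0565) or at 0.278 CPM (0.95, edgeR adjusted p-value = 0.0583). In untreated cells, Cxcl10 in WT1 against the other WT clones had a log2FC of -0.53 ± 0.38 (edgeR adjusted p-value = 0.255).

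KO1 and KO2 differed in 14.9% of tested genes after IFNG (2064 of 13860) and in 23.2% untreated (3207 of 13826). Cxcl10 was 1034 ± 88.1 CPM in KO1 and 613 ± 104.3 CPM in KO2, with no overlap (log2FC 0.76 ± 0.10, edgeR adjusted p-value = 0.000113). Cxcl11 was 23.2 ± 4.27 CPM in KO1 and 15.5 ± 5.90 CPM in KO2 with overlapping libraries (log2FC 0.62 ± 0.19, edgeR adjusted p-value = 0.0465), which DESeq2 did not call (adjusted p-value = 0.329). It was not called either without the KO1 library at 21.8 or 28.03 CPM or the KO2 library at 13.4 or 10.9 CPM (0.42 to 0.66, edgeR adjusted p-value = 0.0872 to 0.178). Cxcl9 had a log2FC of 0.27 ± 0.12 (edgeR adjusted p-value = 0.168), and without the KO2 library at 62.2 CPM it was 0.46 (edgeR adjusted p-value = 0.000385). It also passed with no filter on low counts (0.26, edgeR adjusted p-value = 0.00449). In the order of IFNG-treated clone means, KO1 was therefore first for all 3 chemokines, but its range overlapped that of the next clone each time. KO2 took place 2 for Cxcl9, place 3 for Cxcl11 and place 5 for Cxcl10.

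Ratios within a library do not depend on its depth. Per exon length, Cxcl11 was 1.46% to 2.09% of Cxcl10 in WT1, 1.21% to 1.46% in KO1 and 1.21% to 1.80% in KO2, but 0.414% to 0.520% in WT2 and 0.378% to 0.442% in WT3. The WT2 and WT3 libraries formed a range apart from the other clones. Cxcl9 was 3.02% to 3.92% of Cxcl10 in the 9 WT libraries, 3.82% to 4.65% in KO1 and 5.61% to 6.35% in KO2, so KO2 alone lay outside the WT range with all its libraries.

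**Figure D4:**
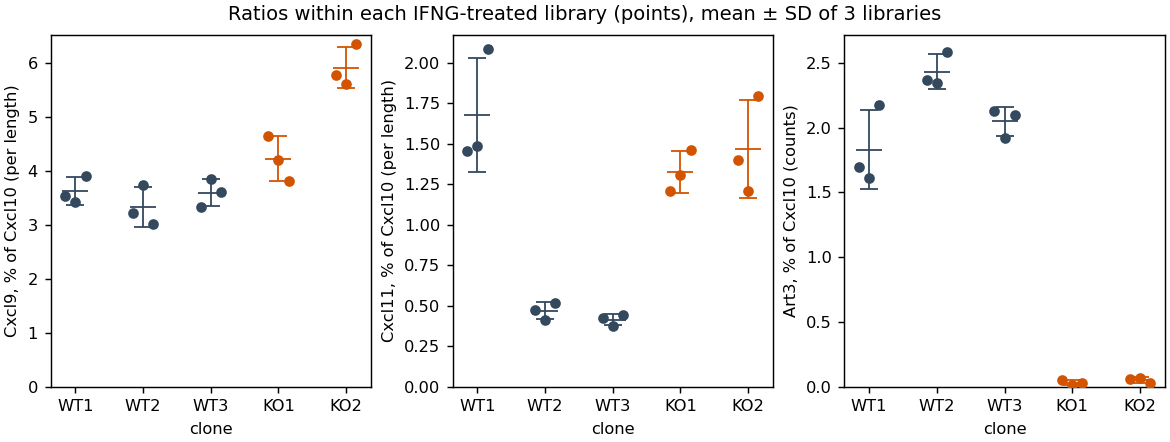
Ratios within each IFNG-treated library (points) with mean ± SD of 3 libraries per clone, for Cxcl9 and Cxcl11 as percent of Cxcl10 per exon length and for Art3 as percent of Cxcl10 counts. WT2 and WT3 lie below 0.6% for Cxcl11, and both KO clones lie below 0.1% for Art3.

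Art3 was present in all 3 WT clones and nearly absent from both KO clones. Untreated WT libraries had 4.77, 5.12 and 4.38 CPM in WT1, 6.14, 6.58 and 6.10 CPM in WT2, and 3.84, 3.98 and 4.39 CPM in WT3, from 79 to 156 counts each. The 3 untreated KO1 libraries held 0, 1 and 0 counts, and the 3 untreated KO2 libraries 2, 3 and 2. Every WT library lay far above every KO library. Summed per depth, WT exceeded KO 99.8-fold (exact 95% counting interval 50.5 to 232), with 1059 against 8 counts.

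After IFNG, Art3 was also higher in WT cells, although far less so than the chemokines. It had 12.5, 11.6 and 14.4 CPM in WT1, 21.6, 22.9 and 22.04 CPM in WT2, and 16.8, 17.2 and 15.6 CPM in WT3. The log2FC against untreated libraries was 1.42 ± 0.12 in WT1, 1.83 ± 0.08 in WT2 and 2.04 ± 0.10 in WT3. IFNG-treated KO1 libraries held 14, 3 and 7 counts and KO2 libraries 12, 12 and 4, or 0.158 to 0.505 CPM. WT exceeded KO 50.8-fold after IFNG (38.7 to 68.2). The few KO counts were themselves more numerous after IFNG, 52 against 8 in all, a ratio per depth of 6.65 (3.14 to 16.2). By clone it was 26.2 in KO1 (4.27 to 1077, from 24 against 1 count) and 3.89 in KO2 (1.66 to 10.5, from 28 against 7). These intervals cover counting error only and not the spread between libraries or clones.

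The unedited clones differed in Art3 too, in a comparison that the rule of choice did not name. After IFNG, WT1 was lower than WT2 and WT3 (12.8 ± 1.45 against 19.4 ± 3.17 CPM, log2FC -0.59 ± 0.13, edgeR adjusted p-value = 0.0017), and WT2 was higher than WT3 (22.2 ± 0.668 against 16.5 ± 0.863 CPM, log2FC 0.43 ± 0.07, edgeR adjusted p-value = 0.000938). Untreated, WT2 was again higher than WT3 (6.27 ± 0.264 against 4.07 ± 0.286 CPM, log2FC 0.64 ± 0.12, edgeR adjusted p-value = 0.00106), while WT1 against both had a log2FC of -0.10 ± 0.17 (edgeR adjusted p-value = 0.661). The WT clone with least Cxcl11, WT3, was thus between the others in Art3 after IFNG, and WT1, with most Cxcl11, was lowest. Between KO1 and KO2, Art3 had too few counts to test.

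Because Art3 and Cxcl10 overlap on opposite strands, fragments of one could be counted for the other if strand were lost. The counting was set to keep strand. In the 6 IFNG-treated KO libraries, Cxcl10 had 14660 to 27057 counts and Art3 3 to 14, which is 0.0160% to 0.0712% of the Cxcl10 counts. In the 9 IFNG-treated WT libraries, Art3 counts were 1.61% to 2.58% of the Cxcl10 counts, and in the untreated WT libraries Art3 had more counts than Cxcl10 in every library. Whether the few KO counts of Art3 are wrong-strand fragments of Cxcl10 was not tested.

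The expressed genes around Art3 were measured in the same libraries. Of 32 other genes lying within 500 kb of the 4 members, 22 had a count and 11 reached a mean of 1 CPM in some group. Between untreated KO and WT cells, 2 of these 11 were higher and 0 lower (edgeR adjusted p-value under 0.05, against 26.6% of all genes called in either direction), with log2FC from -0.16 to 1.05 and a median of 0.06. After IFNG, 4 were higher and 0 lower, against 23.9% of all genes called in either direction, with log2FC from -0.08 to 1.05 and a median of 0.06. Over all genes, 1997 of 13886 were called lower in KO untreated and 1773 of 13637 after IFNG, so few or none of 11 neighbours called lower is near the background. Called higher in KO were 1692 of 13886 untreated and 1485 of 13637 after IFNG. Whether the neighbours called higher exceed that share was not tested. Over all tested genes of chromosome 5 the median was 0.01 untreated and -0.0017 after IFNG. The neighbours also mostly rose with IFNG, so the rise of Art3 in WT was not particular to it. In pooled WT 9 of the 11 were called higher and 0 lower, with a median log2FC of 0.46. For pooled KO it was 7 and 0, with a median of 0.35. Over all genes, 1980 of 13423 were called higher in WT and 2193 of 13851 in KO.

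Naaa, which encodes a lysosomal hydrolase of N-acylethanolamines and lies at -53657 bases from the Art3 start, had the largest log2FC among these neighbours. It had 8.97 ± 1.00 CPM in untreated WT (7.87 to 10.8) and 18.7 ± 2.32 CPM in untreated KO (16.6 to 21.7), with no overlap (log2FC 1.05 ± 0.08, edgeR adjusted p-value = 5.32e-07). After IFNG it had 14.3 ± 4.27 CPM in WT and 29.6 ± 3.68 CPM in KO (log2FC 1.05 ± 0.17, edgeR adjusted p-value = 0.000271). With counts summed per clone, Naaa was not called between KO and WT in either state. It also differed between unedited clones after IFNG, being lower in WT1 than in WT2 and WT3 (-0.71 ± 0.16, edgeR adjusted p-value = 0.00204) and lower in WT2 than in WT3 (-0.53 ± 0.09, edgeR adjusted p-value = 0.00119). Stbd1, a glycogen-binding protein gene, was higher in pooled KO in both states, with a log2FC of 0.41 ± 0.10 untreated (edgeR adjusted p-value = 0.00498) and 0.17 ± 0.06 after IFNG (edgeR adjusted p-value = 0.0438). Untreated, it had 11.8 CPM in KO1 and 8.92 CPM in KO2, whose libraries (8.40 to 9.37) overlapped WT (6.49 to 9.01). The KO2 libraries overlapped WT after IFNG too (10.97 to 11.89 against 10.15 to 11.86 CPM). Cdkl2, a kinase gene, and Uso1, which encodes a vesicle tether of the Golgi, were called between KO and WT after IFNG (log2FC 0.29 ± 0.10 and 0.13 ± 0.04). They did not pass untreated (0.22 ± 0.12 and 0.11 ± 0.04), a contrast between treatments that was not tested. After IFNG, Cdkl2 had 13.6 CPM in KO1 and 10.9 CPM in KO2, and Uso1 had 119.0 and 107.8 CPM. For both genes the KO2 libraries overlapped WT. Stbd1, Cdkl2 and Uso1 were not called in either state with counts summed per clone. Sdad1 and Nup54, the expressed genes on either side of the 4 members, named here after their values were seen, had log2FC of 0.06 ± 0.07 and -0.0035 ± 0.04 untreated, with neither called.

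**Figure D5:**
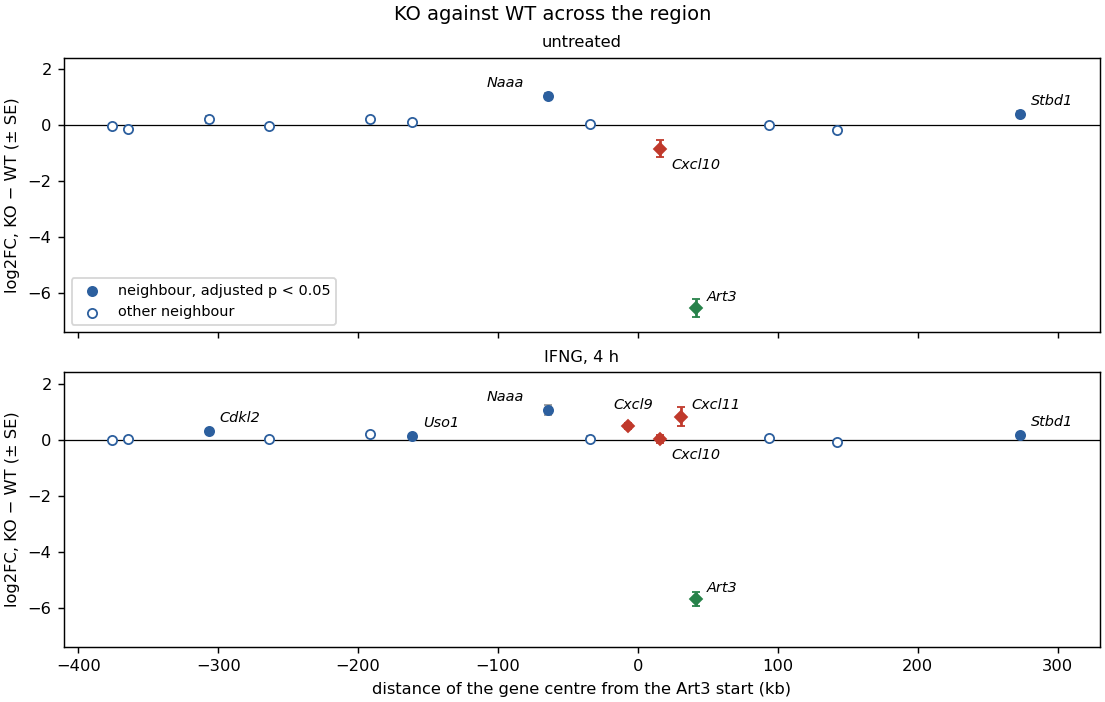
log2FC of KO against WT (± standard error) for the members measured (diamonds, red for chemokines and green for Art3) and the 11 neighbours, by distance of the gene centre from the Art3 start in kb, in untreated (top) and IFNG-treated (bottom) cells. Art3 lies below -5 in both, and every neighbour lies between -0.2 and 1.1.

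Of the CXCR3 axis, only the receptor Cxcr3 and the platelet factor gene Pf4 had enough counts to test, out of 5 listed genes. Cxcr3 had 4.64 ± 0.624 CPM in untreated WT and 1.99 ± 0.428 CPM in IFNG-treated WT, and fell with IFNG in WT (log2FC -1.21 ± 0.12, edgeR adjusted p-value = 9.96e-08) and in KO (-0.85 ± 0.26, edgeR adjusted p-value = 0.0216). The receptor thus changed in the opposite direction to its ligands. Between KO and WT, Cxcr3 was higher in pooled KO, both untreated (log2FC 0.72 ± 0.17, edgeR adjusted p-value = 0.00453) and after IFNG (1.09 ± 0.21, edgeR adjusted p-value = 0.00118). KO1 exceeded KO2 in both states, with 9.98 and 5.39 CPM untreated and 5.43 and 3.07 CPM after IFNG. The KO2 libraries overlapped WT, both untreated (5.07 to 5.89 against 3.62 to 5.60 CPM) and after IFNG (2.65 to 3.38 against 1.39 to 2.69 CPM). Cxcr3 was not called between KO and WT in either state with counts summed per clone. The scavenging receptor Ackr1 and the protease Dpp4, which trims these chemokines, had no count in any library, and the scavenging receptor Ackr3 did not exceed 0.204 CPM.

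Few of the other CXC chemokines had enough counts to test. Of 12 listed, 4 were tested for the response of pooled WT to IFNG, and 1 rose and 1 fell (median log2FC -0.36, against -0.0028 over all genes). For that response, 28.6% of all tested genes were called in either direction. Cxcl16, a membrane-bound chemokine that binds CXCR6, rose (log2FC 0.89 ± 0.06, edgeR adjusted p-value = 1.42e-10), and Cxcl2, a neutrophil attractant, fell (-3.08 ± 0.41, edgeR adjusted p-value = 6.5e-06). Between KO and WT after IFNG, 23.9% of all genes were called in either direction, and 1485 of 13637 were called higher. Of the other CXC chemokines, 3 of 5 tested were higher and 0 lower. These were Cxcl14 (log2FC 1.91 ± 0.43, edgeR adjusted p-value = 0.00392), Cxcl2 (1.48 ± 0.32, edgeR adjusted p-value = 0.00302) and Cxcl16 (0.36 ± 0.08, edgeR adjusted p-value = 0.00252). The Cxcl14 value rests on low levels, 1.24 ± 0.444 CPM in KO and 0.316 ± 0.252 CPM in WT, where the lowest library had 0. None of the 3 genes was called with counts summed per clone. Cxcl2 shared with Cxcl11 a higher level in WT1 than in WT2 and WT3 after IFNG (log2FC 1.51 ± 0.16, edgeR adjusted p-value = 3.11e-06). Cxcl16 was also higher in WT1 there (0.17 ± 0.06, edgeR adjusted p-value = 0.0252). In that comparison, 48.2% of all tested genes were called in either direction.

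The signalling genes upstream of the chemokines mostly rose with IFNG in both genotypes. An IFNG response in either direction was called for 28.6% of all tested genes in pooled WT and 30.7% in pooled KO. Of 20 listed IFNG signalling genes, 16 rose and 2 fell in pooled WT, and 16 rose and 2 fell in pooled KO. The 4 largest in both were Socs1, a feedback inhibitor of the JAK kinases, Batf2 and Irf1, transcription factors of the response, and Socs3, with log2FC in WT from 4.85 ± 0.35 (Socs3) to 6.88 ± 0.16 (Socs1). The receptor subunit genes Ifngr1 and Ifngr2, named after their values were seen, were the pair that fell, with log2FC of -0.58 ± 0.08 and -0.54 ± 0.05 in WT. Between KO and WT after IFNG, 4 of the 20 were higher and 2 lower (median log2FC 0.0060, against 0.00097 over all genes). In this comparison, 23.9% of all tested genes were called in either direction. The called genes of this list included Nfkbia, the NF-kB inhibitor gene (0.69 ± 0.09, edgeR adjusted p-value = 6.3e-05), Irf7, an interferon regulatory factor gene (-0.69 ± 0.13, edgeR adjusted p-value = 0.00102), Ifngr2 (0.38 ± 0.07, edgeR adjusted p-value = 0.000997) and Stat2 (-0.23 ± 0.07, edgeR adjusted p-value = 0.0308). With counts summed per clone, no gene of this list was called between KO and WT after IFNG.

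Among the other ecto-ADP-ribosyltransferase genes, none of 5 (Art1, Art2a, Art2b, Art4, Art5) reached enough counts to test in any comparison, and Art2a is listed in the annotation as the pseudogene Art2a-ps. Art1, Art4 and Art5 had no count in any library. Art2a and Art2b did not exceed 0.123 CPM in any library, so among these 6 genes Art3 alone exceeded that level.

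Over the 30 libraries, the level of each chemokine on the log2(CPM + 0.5) scale was set beside that of the 12345 genes averaging 1 CPM or more. This is a description, and for the chemokines it rests mainly on treated against untreated libraries. The 5 most similar genes by Pearson's r were BC023105, Serpina3f, Serpina3g, Gbp2b and Tgtp2 for Cxcl9 (r of 0.997 to 0.998), and Irgm1, Iigp1, Igtp, Cxcl9 and BC023105 for Cxcl10 (0.997 to 0.998). Cxcl11 was most like Inpp5b, Serpina3i, Tgtp1, Serpina3h and Tap1 (0.984 to 0.989), and Cxcl9 stood only at place 23 of its list. Several of these are close paralogs of one another, so their counts are uncertain. Art3 was most like Acacb, Col27a1, Gm11613, Clec4n and Casp8 (0.946 to 0.957), and its r with Cxcl10, which it overlaps, was 0.32. Over the 15 untreated libraries alone, its 5 most similar genes were Chst10, Camk2a, Bivm, Ifi204 and Copg1 (0.984 to 0.988), a set of libraries in which the WT and KO clones have separate ranges of Art3.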

How the data were processed

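RNA-seq was done on 30 J774A.1 libraries (paired-end, poly(A) mRNA). For each gene the deposited tables give unnormalised fragment counts. The authors obtained these by BBDuk trimming, aligning to mm10 with HISAT2 2.1.0, keeping uniquely aligned fragments, merging technical replicates with SAMtools 1.10 and counting exons with featureCounts 1.6.2, reversely stranded, a fragment over overlapping genes being counted for each. The header names GENCODE vM18 and the methods a RefSeq annotation. The other 13 deposited tables held the same counts (138 of 138 columns). Columns named wtc1 and wtc3 were taken as WT2 and WT3 from the tables deposited under those names, on which pooled WT values do not depend. RNA input and adapter type varied without being assigned to libraries, so no such batch could be examined.

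The main test was edgeR's quasi-likelihood test (edgeR 4.0.16 in R 4.3.3, TMM factors, genes kept by filterByExpr), each comparison on its own libraries, with Benjamini-Hochberg adjustment over all genes tested. Standard errors were taken as |log2FC| over the root of the F statistic. CPM used TMM factors over all libraries, and levels per length divide CPM by the exonic length given with the counts. Alternatives were DESeq2 1.42.0, RLE, other count filters, a single fit, clone as block or unit, and leaving out libraries or clones. Both tools were tested on simulated data. Counting intervals are exact (Clopper-Pearson) and cover counting error only. Members, lists and tests were chosen with earlier results of these data known. Named genes were the members, called neighbours within 500 kb, up to 4 called genes with the largest log2FC of each list, genes of highest Pearson's r, and Dicer1, with others said to be named after their values were seen. Tables and figures used Python 3.11.15.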

Additional observations from a re-analysis of the deposited data

Results flagged for a closer look

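In untreated cells, 1 WT3 library had 0.0428 CPM of Cxcl11 while the other 8 untreated WT libraries had 0, and 1 KO1 library had 0.0414 CPM while the other 5 untreated KO libraries had 0. Each was singled out by a gap test for a sample far from the rest of its group (Dixon's test at the 95% level), and 14 groups were tested. The test's nominal rate of about 1 in 20 groups does not hold here. A lone count among libraries at 0 always gives the largest possible gap, so nothing is read from these flags. Each value is 1 count.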

How the results depend on the processing

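No paired analysis was possible because the columns of the count table carry no replicate number. The number of genes called between KO and WT depended on the unit: after IFNG it was 3258, against 7194 in 1 fit over all libraries, 1 with counts summed per clone (Art3, which was chosen by this contrast) and 1411 to 5992 on leaving out libraries or clones. Untreated it was 3689, against 7143, 1 (Pla2g7, which is no member) and 1674 to 6472. Without KO1 the counts were the lowest, and without WT1 the highest. Leaving out a library gave 1328 to 2294 calls for KO1 against KO2 after IFNG, 761 to 2269 for WT2 against WT3 after IFNG and 1339 to 2215 untreated, for which DESeq2 gave 1336 and the single fit 962. The response of pooled WT had 6571 calls in the single fit, 6190 with clone as a block and 1231 with counts summed per clone, which gave 1247 in pooled KO.

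Cxcl10 after IFNG in KO against WT, near 0, had a log2FC of -0.0165 in the single fit and -0.41 to 0.36 on leaving out libraries or clones. Untreated, it passed in 9 of 26 settings, namely DESeq2 (-0.85), the single fit (-0.79) and 7 that left out a library or clone, with -1.12 to -0.41 over all that did. Cxcl11 passed in the single fit (1.01), with 0.49 to 1.59 on leaving out. Cxcl9 did not pass with counts summed per clone (0.48), with 0.35 to 0.62 on leaving out. The fitted log2FC of Art3 untreated, where KO counts are near 0, was -6.53, against -6.95 in the single fit and -8.10 to -5.86 on leaving out. Cxcl9 in WT2 against WT3 turned to -0.075 without the WT2 library at 49.0 CPM and ranged up to 0.21. Which cause lies behind these shifts was not tested.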
